A study of Mus musculus with 9 samples.

Results

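The gene set described here holds the matrix proteases and their tissue inhibitors of 3T3-L1 cells, a line of mouse preadipocytes that look like fibroblasts and turn into fat-laden adipocytes under a hormone cocktail. Members were chosen by a rule on the symbol alone, which was set with earlier results of these data known. It takes every listed gene whose symbol begins with Mmp, Timp, Adam or Adamts followed by a digit. This gave 63 of 19094 genes, of which 20 were matrix metalloproteinases (MMPs), 4 were tissue inhibitors of metalloproteinases (TIMPs), 21 were ADAMs and 18 were ADAMTS genes. RNA was sequenced at day 0, day 4 and day 8, with 3 samples per day and 9 in all. Day 0 cells were confluent and untreated, day 4 cells had received dexamethasone, IBMX and insulin for 2 days and then insulin alone, and day 8 cells had received insulin for 4 more days. All groups were of the same line, the study's methods describe each sample as mixed RNA, and no untreated culture of day 4 or day 8 was among the samples, so time in culture and treatment cannot be told apart. Day 4 against day 0 is called the early phase, day 8 against day 4 the late phase and day 8 against day 0 the whole process. Any 2 of these comparisons share the samples of 1 day. Each sample held between 18216114 and 20452144 expected counts, the unnormalized estimates of reads per gene.

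MMPs are zinc enzymes that cut collagens and other matrix proteins, most of them secreted as inactive precursors and a few held in the membrane. TIMPs bind the active site of these enzymes and block it. ADAMs are membrane proteins, several of which shed growth factors and receptors from the cell surface, and ADAMTS enzymes are secreted proteases that cut proteoglycans or trim procollagens. In fat tissue such enzymes are known for remodelling the matrix around growing cells.

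The label of the cells was checked first against marker genes, on the FPKM scale (fragments scaled to the gene's length and the sample's depth). The 8 adipocyte markers summed to between 33.4 and 36.0 FPKM in the day 0 samples, between 4910 and 7153 FPKM in the day 4 samples and between 7419 and 7960 FPKM in the day 8 samples, with Fabp4, a fatty acid carrier, as the most abundant. The 6 preadipocyte and fibroblast markers, led by Dlk1, summed to between 1318 and 1398 FPKM on day 0, between 505.8 and 555.9 FPKM on day 4 and between 808.6 and 826.2 FPKM on day 8. Its members did not move alike, since Ly6a fell early without a late call (166.7, 42.8 and 38.8 FPKM), Pdgfra was highest at day 4 (59.6, 102.1 and 65.7 FPKM, not called), and Thy1 and Pdgfrb were not called. Cd34 was scarce (0.51, 0.307 and 0.207 FPKM) and fell by 1.24 ± 0.32 on the log2 scale over the whole process (adjusted p = 0.00273, edgeR). The extract protocol in the labels names another tissue, the dorsal root ganglion, but the 8 sensory neuron and glia markers summed to between 1.88 and 2.40 FPKM in the 9 samples, and the neuronal markers Rbfox3 and Scn10a stayed under 0.1 FPKM. Several proteases described below are also known from leukocytes. The 9 macrophage and leukocyte markers summed to between 5.07 and 9.02 FPKM, with Cd14 as the most abundant, at 4.48, 3.13 and 2.70 FPKM at days 0, 4 and 8. Ptprc, Adgre1 and Itgam, which define these cells, were under 0.1 FPKM in every sample, and Cd3e was listed in none. Lyz2, the macrophage lysozyme, had day means of 1.80, 0.400 and 0.930 FPKM. It fell by 2.10 ± 0.32 on the log2 scale early (adjusted p = 2.1e-05, edgeR) and rose by 1.25 ± 0.36 late (adjusted p = 0.00934), a course like that of Mmp3 and Mmp9 below. Cd14 differed by -0.45 ± 0.14 early (adjusted p = 0.00839) and was not called, and the other tested markers Cd68 and Csf1r were not called either. The part of such cells in the protease values was not tested. Endothelial markers summed to at most 0.50 FPKM, epithelial markers to at most 0.85 FPKM and muscle markers to at most 1.82 FPKM, the last almost wholly Acta1.

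A group of MMP genes lies side by side on mouse chromosome 9, in the order Mmp13, Mmp12, Mmp1b, Mmp3, Mmp1a, Mmp10, Mmp8 and Mmp27. Mmp20 and Mmp7 follow in the row but are not among the members. Mmp3 and Mmp13 carried 2 of the larger changes among the MMPs, so their promoters are shown beside those of 3 almost silent neighbours, chosen because they hold the same motifs. Each sequence is the 120 bases before the annotated start, 5′ to 3′, taken from RefSeq (GRCm38.p6), with capitals marking the AP-1 motif TGANTCA and the TATA motif TATAAA. The windows are those of Mmp13 (chr9:7272394-7272513, plus strand), Mmp3 (chr9:7445702-7445821, plus strand), Mmp1a (chr9:7464021-7464140, plus strand), Mmp1b (chr9:7388027-7388146, minus strand) and Mmp10 (chr9:7502222-7502341, plus strand).
Mmp13: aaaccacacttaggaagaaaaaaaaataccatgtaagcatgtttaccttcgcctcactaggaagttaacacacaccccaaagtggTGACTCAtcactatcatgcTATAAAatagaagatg
Mmp3: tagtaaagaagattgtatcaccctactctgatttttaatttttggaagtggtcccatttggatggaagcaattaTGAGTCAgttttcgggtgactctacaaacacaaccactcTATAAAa
Mmp1a: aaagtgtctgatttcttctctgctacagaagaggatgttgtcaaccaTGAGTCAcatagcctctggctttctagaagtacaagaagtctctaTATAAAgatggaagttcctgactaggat
Mmp1b: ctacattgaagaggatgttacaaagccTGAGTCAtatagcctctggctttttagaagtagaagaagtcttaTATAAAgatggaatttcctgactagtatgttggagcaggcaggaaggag
Mmp10: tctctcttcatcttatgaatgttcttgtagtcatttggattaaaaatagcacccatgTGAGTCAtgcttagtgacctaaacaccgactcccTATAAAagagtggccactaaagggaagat

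The 5 windows were chosen for holding both motifs. Of the other neighbours among the members, Mmp12 had the AP-1 motif in 1 of 2 promoters and no TATA motif, and the Mmp8 and Mmp27 promoters held neither. The AP-1 motif began 35 bases before the start in Mmp13, 46 in Mmp3, 73 in Mmp1a, 93 in Mmp1b and 63 in Mmp10. RefSeq gave 43 promoters for 39 of the 63 members, and in the 250 bases before the start 7 of these 43 (16.3%) held TGANTCA, against 6.75% of all 32851 promoters. These 7 belonged to Mmp13, Mmp12, Mmp1b, Mmp3, Mmp1a and Mmp10, which are neighbours, and to Adam19 on chromosome 11. TATAAA, searched on both strands, stood in 6 of 43 member promoters (14%) and in 12.4% of all promoters. The promoters of Timp3 and Timp4, the TIMP genes with the largest changes, are shown because neither motif occurred within 250 bases of their starts. Their windows are those of Timp3 (chr10:86300292-86300411, plus strand) and Timp4 (chr6:115252206-115252325, minus strand).
Timp3: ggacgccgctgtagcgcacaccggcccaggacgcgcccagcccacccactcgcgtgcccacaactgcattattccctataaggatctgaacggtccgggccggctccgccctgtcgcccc
Timp4: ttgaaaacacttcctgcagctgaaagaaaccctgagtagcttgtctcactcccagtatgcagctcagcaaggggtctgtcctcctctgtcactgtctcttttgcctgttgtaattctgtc

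The Timp3 promoter was rich in G and C (65.6% of its 250 bases) and that of Timp4 was near the middle of all promoters (53.6%, against a median of 52.4%). A motif match describes letters only and shows no binding.

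Of the 63 members, 34 reached a mean of 1 FPKM on at least 1 day, 31 reached 5 FPKM and 16 reached 20 FPKM. Counts were tested with edgeR's quasi-likelihood test across all genes, and a gene was called upregulated or downregulated at a Benjamini-Hochberg adjusted p under 0.05 with a fold change above 2. The filter on low counts left 43 members to test, comprising 12 MMPs, 4 TIMPs, 13 ADAMs and 14 ADAMTS genes. Early, 8 of these 43 were upregulated and 6 downregulated, beside 9.77% and 7.98% of all 13154 tested genes. In the late phase 8 were upregulated and 0 downregulated, beside 4.24% and 2.81% of all tested genes. The 0 held in edgeR with TMM factors also at an unadjusted p under 0.05, in DESeq2 and in limma, whereas edgeR with library size alone and the Poisson test gave 1 each, and 1, 2 and 3 members were downregulated late without Day 4 replicate 1, Day 4 replicate 2 and Day 8 replicate 1. In that phase 15 members were lower and 13 higher at an adjusted p under 0.05 whatever the fold, beside 22.7% and 22.5%. Over the whole process 11 were upregulated and 5 downregulated, beside 10.3% and 7.7%. As shares of the 43 tested members, the calls were 18.6% up and 14% down early, 18.6% up late, and 25.6% up and 11.6% down over the whole process. With no limit on the fold, 18 members were higher and 14 lower in the early phase, beside 35.5% and 33.7% of all tested genes, and 19 were higher and 12 lower over the whole process, beside 34.8% and 36.2%. The median log2 fold change of the tested members was 0.13 early, -0.09 late and 0.10 over the whole process, beside 0.02, -0.01 and -0.02 for all tested genes. In total 20 of the 43 tested members were called in at least 1 comparison and 23 in none, beside 3148 of all 13154 tested genes called in at least 1. Such bulk RNA values do not separate fewer expressing cells from less RNA per cell.

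Calls were spread over all classes. The counts below are to be read beside the shares of all tested genes. These were 9.77% up and 7.98% down early, 4.24% and 2.81% late, and 10.3% and 7.7% over the whole process. Among the 12 tested MMPs, 2 were upregulated and 2 downregulated early and 4 were upregulated late, with median log2 fold changes of 0.04 and 0.36. Among the 4 TIMPs, 1 was upregulated and 1 downregulated early and 2 were upregulated late, with medians of -0.29 and 0.58. Among the 13 tested ADAMs, 1 was upregulated and 1 downregulated early and 0 were called late in edgeR, also at an unadjusted p under 0.05 with a 2-fold change, although 9 were lower in the late phase at an adjusted p under 0.05, with a median log2 fold change of -0.70, beside 22.7% and a median of -0.01 for all tested genes. The early median of the ADAMs was 0.17. Among the 14 tested ADAMTS genes, 4 were upregulated and 2 downregulated early and 2 were upregulated late, with medians of 0.43 and 0.14. The difference between classes itself was not tested. Over the whole process the upregulated members were 4 MMPs, 1 TIMP, 1 ADAM and 5 ADAMTS genes, and the downregulated ones were 1 TIMP, 3 ADAMs and 1 ADAMTS gene.

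**Figure D1:**
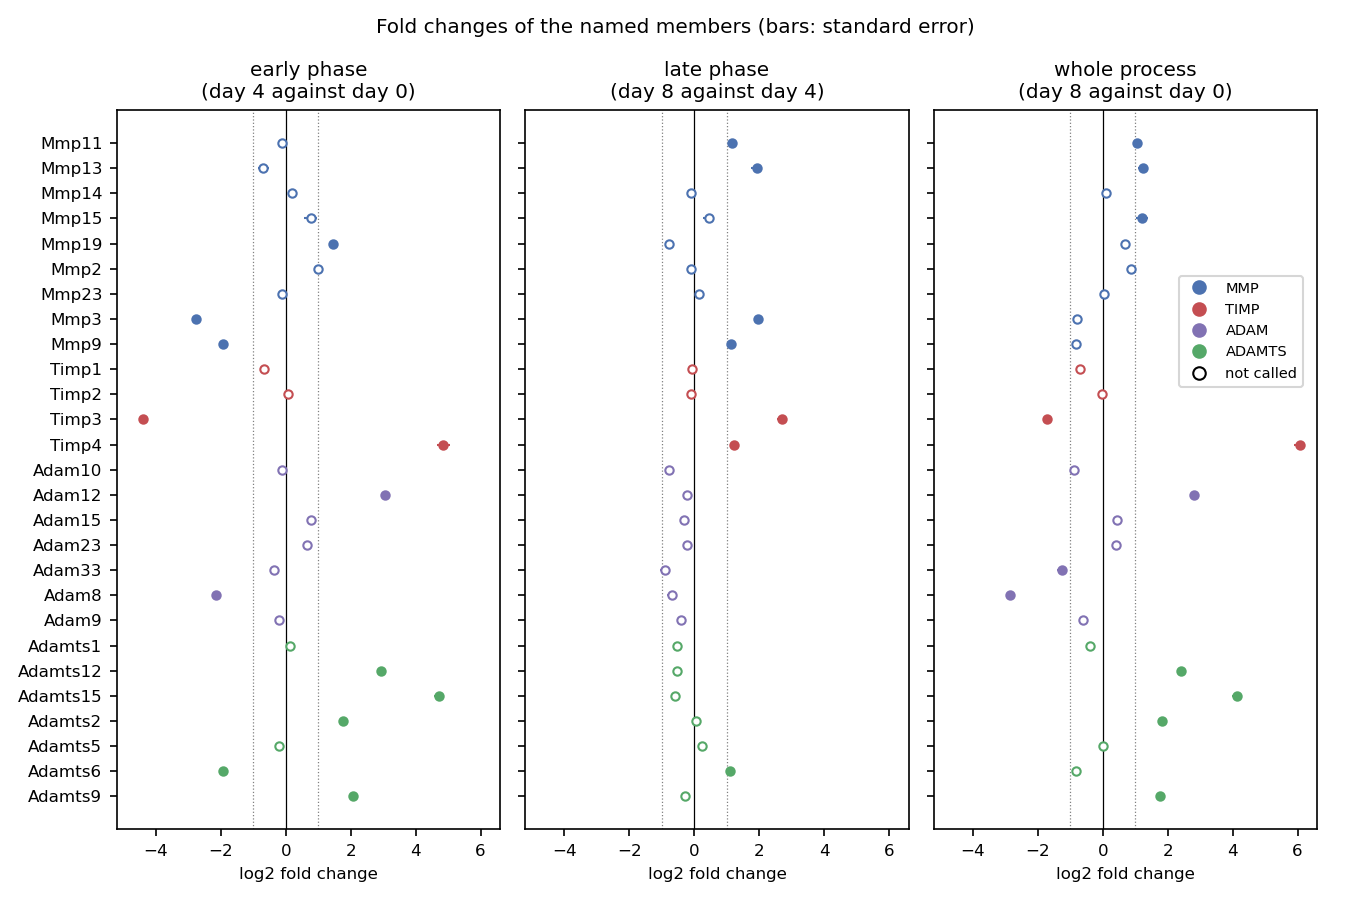
Log2 fold change (horizontal axis) of each named member in the early phase, the late phase and the whole process, with the standard error as a bar and filled points for called genes. Timp4 reached 6.06 over the whole process, Timp3 lay at -4.40 early and 2.69 late, and no late phase point to the left of 0 is filled.

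Most MMP RNA came from 2 genes. Mmp2, which encodes gelatinase A, stood at 442, 360.0 and 426 FPKM at day 0, at 894, 773 and 669 FPKM at day 4 and at 722, 687 and 686 FPKM at day 8. All day 4 and day 8 values exceeded all day 0 values, and by its mean FPKM Mmp2 was the 141st gene of all at day 0, the 73rd at day 4 and the 83rd at day 8. Its log2 fold change was 0.99 ± 0.09 (SE) early (adjusted p = 5.7e-08), just under the limit of 1, so that it was not called. Without Day 0 replicate 1, Day 0 replicate 3 or Day 4 replicate 3 the value was 1.06, 1.03 or 1.10 and Mmp2 was called, as it was at 1 with a minimum of 10 counts in every sample. In the late phase Mmp2 differed by -0.11 ± 0.09 (adjusted p = 0.327), which did not pass the test, and over the whole process by 0.88 ± 0.09 (adjusted p = 2.3e-07).

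Mmp14, which encodes the membrane-held MT1-MMP that activates the Mmp2 precursor, stood at 346, 283 and 329.5 FPKM at day 0, at 387, 351 and 310.0 FPKM at day 4 and at 329.6, 311 and 314 FPKM at day 8. The samples of the 3 days overlapped. Its log2 fold changes were 0.19 ± 0.08 early, -0.09 ± 0.08 late and 0.10 ± 0.08 over the whole process, none of them called. Mmp2 and Mmp14 together made up 83.0% of the summed MMP FPKM at day 0, 88.3% at day 4 and 85.2% at day 8.

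Mmp3 and Mmp9 fell early and rose late. Mmp3 encodes stromelysin-1, which cuts proteoglycans, fibronectin and other MMP precursors, and stood at 17.6, 19.7 and 18.2 FPKM at day 0, at 2.79, 2.73 and 2.29 FPKM at day 4 and at 10.1, 11.1 and 8.57 FPKM at day 8. The days did not overlap, and day 8 stayed below day 0. The gene fell by 2.76 ± 0.11 on the log2 scale early (adjusted p = 1.3e-12) and rose by 1.97 ± 0.11 late (adjusted p = 8.3e-10). Of its 50-base stretches, 8.39% also occur in Mmp10, which was nearly absent. Mmp9, which encodes gelatinase B, stood at 17.7, 20.6 and 20.4 FPKM at day 0, at 4.95, 5.64 and 3.88 FPKM at day 4 and at 10.9, 10.1 and 9.61 FPKM at day 8. It had the same order of days without overlap. Mmp9 fell by 1.95 ± 0.10 early (adjusted p = 5.4e-11) and rose by 1.12 ± 0.11 late (adjusted p = 2.8e-07), the latter value being 0.99 and not called without Day 4 replicate 3. With limma on log2(FPKM + 1) the late value was 0.95 and not called. Over the whole process Mmp3 differed by -0.79 and Mmp9 by -0.83, within the 2-fold limit.

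Mmp11 and Mmp13 were called higher at day 8. Mmp13, which encodes collagenase-3, stood at 2.99, 2.19 and 3.26 FPKM at day 0, at 1.76, 1.92 and 1.33 FPKM at day 4 and at 7.18, 5.92 and 5.30 FPKM at day 8. Every day 8 sample was above every other sample. It rose by 1.92 ± 0.16 on the log2 scale late (adjusted p = 7.2e-08) and by 1.23 ± 0.15 over the whole process (adjusted p = 1.7e-06). Its early difference of -0.69 ± 0.17 (adjusted p = 0.00216) stayed within the 2-fold limit and was not called. With limma on log2(FPKM + 1) the whole process value was 0.91 and not called. Mmp11, which encodes stromelysin-3, an enzyme activated inside the cell by furin, stood at 38.3, 32.7 and 35.9 FPKM at day 0, at 35.4, 30.2 and 27.0 FPKM at day 4 and at 62.4, 68.7 and 70.5 FPKM at day 8. Days 0 and 4 overlapped and day 8 lay above both. The gene rose by 1.16 ± 0.09 late (adjusted p = 2.0e-08) and by 1.04 ± 0.09 over the whole process (adjusted p = 1.6e-08). That last call was lost at 0.98 without Day 0 replicate 2, at 0.93 with library size alone and at 0.90 and 0.91 with limma. Of the Mmp11 exon bases, 5.58% overlap Chchd10 on the opposite strand.

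Mmp19, a secreted MMP known from many tissues, had the opposite course to Mmp3. It stood at 26.6, 26.6 and 28.3 FPKM at day 0, at 69.9, 70.9 and 73.9 FPKM at day 4 and at 41.7, 40.1 and 40.7 FPKM at day 8. All day 4 samples were highest and all day 0 samples lowest. Mmp19 rose by 1.46 ± 0.05 on the log2 scale early (adjusted p = 1.3e-13), while its late difference of -0.77 ± 0.05 (adjusted p = 1.2e-09) stayed within the 2-fold limit. Of its exon bases, 22.3% overlap Tmem198b on the opposite strand, and the strand of the counting is not given in the sources used here, so reads of that stretch cannot be told apart. Mmp23, a membrane-anchored MMP, stood at 28.8, 29.3 and 29.96 FPKM at day 0, at 26.5, 25.9 and 25.6 FPKM at day 4 and at 30.5, 25.1 and 27.4 FPKM at day 8 and was not called. Mmp15, which encodes MT2-MMP, had day means of 0.503 ± 0.0379, 0.813 ± 0.196 and 1.07 ± 0.155 FPKM (SD) and rose by 1.21 ± 0.19 over the whole process (adjusted p = 2.8e-05). That call was lost with limma on log2(FPKM + 1) (0.46) and on log2(FPKM + 0.1) (0.95). Mmp28, which encodes epilysin, was not called, at day means of 15.1, 10.5 and 12.5 FPKM.

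Among the 8 neighbouring members on chromosome 9, only Mmp13 and Mmp3 reached 1 FPKM. Mmp27, the last of these 8 in the row, had day means of 0.157, 0.530 and 0.460 FPKM, and Mmp12, Mmp1b, Mmp1a, Mmp10 and Mmp8 had too few counts to be tested. Of these 5, Mmp12, Mmp1b, Mmp1a and Mmp10 had their highest day mean at day 0 and Mmp8 at day 4, all at 0.10 FPKM or less, a level of a few counts. Mmp3 and Mmp13 were thus both lower early at an adjusted p under 0.05 and both higher late, but only Mmp3 passed the 2-fold limit early. Their day 8 samples lay on opposite sides of day 0.

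**Figure D2:**
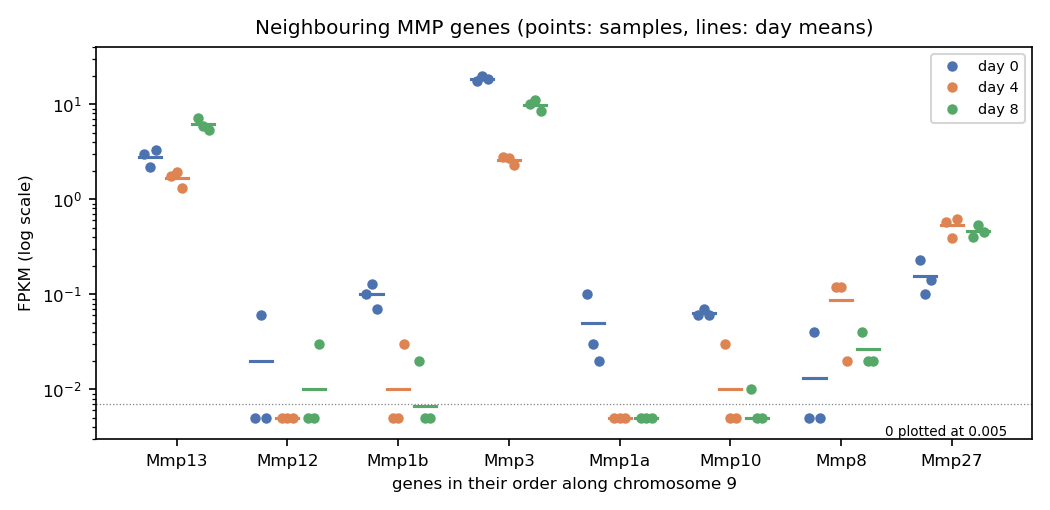
FPKM (log axis) of the 8 members that neighbour each other on chromosome 9, in their order along it, with points for samples and lines for day means, and values of 0 drawn at 0.005. Mmp3 and Mmp13 stand above 1 FPKM in all samples, and the 6 others stay under 1 FPKM.

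The TIMPs split into 2 abundant genes that were not called and 2 scarcer genes that were. Timp2, whose protein joins MT1-MMP in activating the Mmp2 precursor, stood at 362, 339 and 367 FPKM at day 0, at 403, 364 and 311 FPKM at day 4 and at 339, 325 and 319 FPKM at day 8. The days overlapped, and the log2 fold changes were 0.08 ± 0.07 early, -0.09 ± 0.07 late and -0.01 ± 0.07 over the whole process. Timp1, the inducible soluble inhibitor, stood at 101, 119.6 and 104 FPKM at day 0, at 70.5, 65.2 and 61.2 FPKM at day 4 and at 65.1, 58.8 and 59.2 FPKM at day 8. Every day 0 sample was above every later one. Its early difference of -0.66 ± 0.07 (adjusted p = 2.5e-07) and its difference of -0.71 ± 0.07 over the whole process (adjusted p = 8.8e-08) passed the adjusted p but not the 2-fold limit.

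Timp3, the TIMP that is bound to the matrix and also inhibits ADAM17 and the aggrecan-cutting ADAMTS enzymes, stood at 7.77, 8.74 and 8.60 FPKM at day 0, at 0.44, 0.38 and 0.31 FPKM at day 4 and at 2.05, 2.42 and 2.62 FPKM at day 8. The days did not overlap. It fell by 4.40 ± 0.13 on the log2 scale early (adjusted p = 4.2e-14), 21.2-fold, and rose by 2.69 ± 0.15 late (adjusted p = 4.5e-10). Over the whole process it fell by 1.71 ± 0.09 (adjusted p = 1.1e-10). Timp4, a TIMP known from heart and fat, stood at 0.24, 0.51 and 0.28 FPKM at day 0, at 7.88, 10.1 and 10.3 FPKM at day 4 and at 20.6, 21.2 and 21.9 FPKM at day 8. Each later day lay above the one before in every sample. Timp4 rose by 4.85 ± 0.20 early (adjusted p = 2.4e-12), by 1.21 ± 0.10 late (adjusted p = 7.2e-08) and by 6.06 ± 0.18 over the whole process (adjusted p = 4.5e-14), which is 66.9-fold. Its lowest count in any sample was 7, so the day 0 level behind the early and whole process folds and the day 0 ratio below rests on few counts. Per length, Timp3 exceeded Timp4 26.7 ± 8.36 times (SD) at day 0, whereas Timp4 exceeded Timp3 25.9 ± 7.71 times at day 4 and 9.05 ± 0.891 times at day 8.

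**Figure D3:**
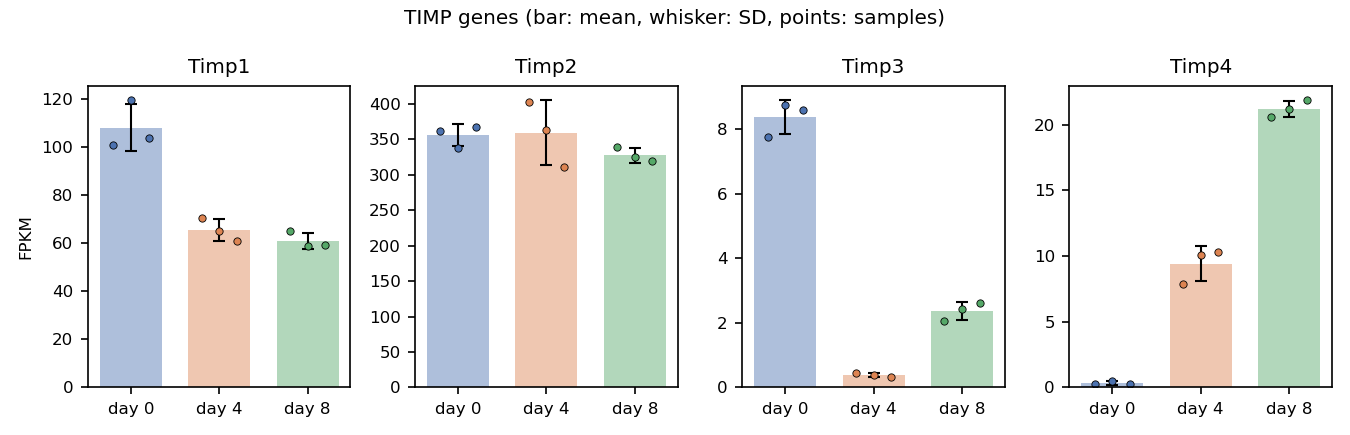
FPKM of the 4 TIMP genes by day, with bars for means, whiskers for the SD, points for samples and a separate vertical scale in each panel. Timp2 stays between 311 and 403 FPKM, Timp3 has its lowest samples at day 4 and Timp4 climbs from at most 0.51 FPKM at day 0 to 20.6 FPKM or more at day 8.

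Timp1, Timp3 and Timp4 are known to lie inside synapsin genes, which encode proteins of synaptic vesicles, whereas Timp2 does not. Timp4 lies within Syn2, on the other strand, and 1.53% of its exon bases overlap Syn2 exons. Syn2 stood at 0.13, 0.12 and 0.15 FPKM at day 0, at 16.4, 18.5 and 18.3 FPKM at day 4 and at 6.71, 7.78 and 8.72 FPKM at day 8. It rose by 7.11 ± 0.16 on the log2 scale early (adjusted p = 2.5e-15) and fell by 1.15 ± 0.08 late (adjusted p = 1.5e-08), while Timp4 rose in both phases. Timp3 and Syn3 overlap on 21.3% of the Timp3 exon bases, and Syn3 had day means of 0.117, 0.0433 and 0.0667 FPKM. Syn3 fell by 1.36 ± 0.45 early (adjusted p = 0.0131), the same direction as Timp3, and was not called late. Syn1, the host of Timp1, had day means of 0.757, 0.327 and 0.10 FPKM and was downregulated in all 3 comparisons. The part of this overlap in the Timp3 values was not tested.

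The summed RNA of the proteases was also set against that of their inhibitors. Summed over all MMPs, the level was 878.1 ± 78.8 FPKM (SD) at day 0, 1278 ± 155.8 at day 4 and 1193 ± 30.7 at day 8, and summed over the TIMPs it was 473.1 ± 6.48, 434.6 ± 49.5 and 412.3 ± 13.0 FPKM. Day 0 samples had a ratio of both sums of 1.86 ± 0.154, day 4 samples 2.94 ± 0.0425 and day 8 samples 2.89 ± 0.0238, and the 3 day 0 samples, at 1.99, 1.69 and 1.89, lay below the 6 later ones. That of Mmp2 to Timp2 was 1.15 ± 0.0785, 2.17 ± 0.0503 and 2.13 ± 0.0181. The ratio of Mmp14 to Timp2 was 0.896, 0.974 and 0.971. These are RNA ratios given without a test, and they do not measure protein or enzyme activity. Timp2 made up 75.3%, 82.7% and 79.5% of the TIMP sum at days 0, 4 and 8, so that Timp3 and Timp4 took a small share of it.

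**Figure D4:**
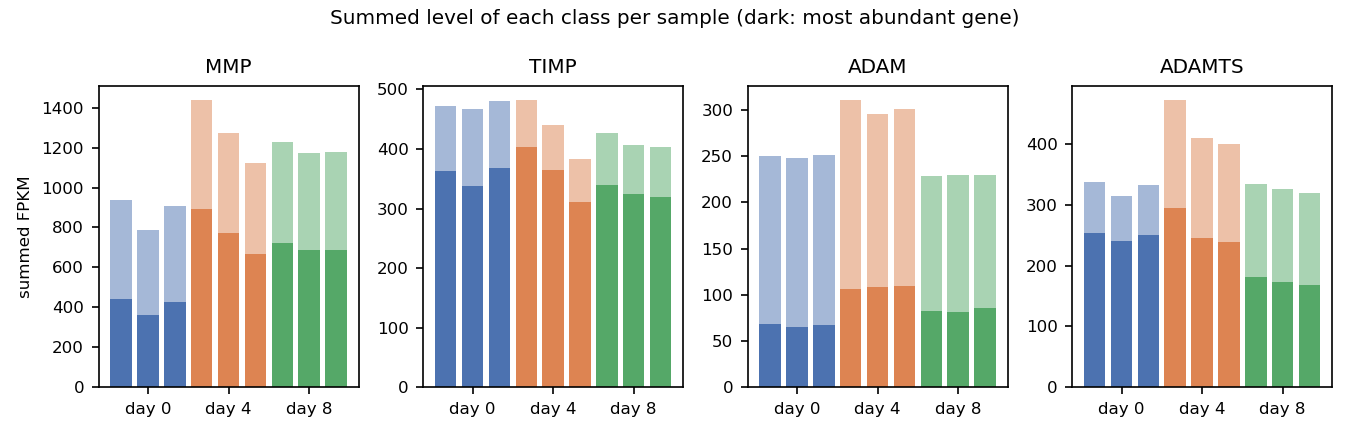
Summed FPKM of each class in each of the 9 samples, with the most abundant gene of that sample as the darker part. This gene was Mmp2 for MMPs, Timp2 for TIMPs, Adamts1 for ADAMTS genes and Adam15 for ADAMs, except in Day 0 replicate 2, where Adam9 led the ADAMs.

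Of the ADAMs, the abundant genes shifted within the 2-fold limit. Adam10, which encodes a sheddase of Notch, cadherins and growth factors, stood at 51.8, 51.7 and 53.5 FPKM at day 0, at 49.4, 43.5 and 45.8 FPKM at day 4 and at 25.9, 27.0 and 25.4 FPKM at day 8. The day 8 samples lay below all others. Its log2 fold change was -0.78 ± 0.05 late (adjusted p = 4.4e-09) and -0.89 ± 0.05 over the whole process (adjusted p = 1.8e-10), so it was not called. Adam17, the sheddase of tumour necrosis factor, had day means of 12.0, 12.9 and 11.6 FPKM and was not called. Adam9 stood at 63.1, 65.1 and 61.1 FPKM at day 0, at 55.1, 50.1 and 49.99 FPKM at day 4 and at 38.1, 38.6 and 37.6 FPKM at day 8. Its samples were in the same order of days as those of Adam10, without overlap, and its difference over the whole process was -0.62 ± 0.05 (adjusted p = 1.0e-08).

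Adam15 and Adam23 were highest at day 4. Adam15, the most abundant ADAM by day mean, stood at 68.8, 62.4 and 67.3 FPKM at day 0, at 106.3, 108 and 109.8 FPKM at day 4 and at 82.9, 80.9 and 85.9 FPKM at day 8. Adam23, whose protein lacks the catalytic zinc site and serves in adhesion, stood at 31.9, 34.3 and 35.7 FPKM at day 0, at 53.5, 48.6 and 49.9 FPKM at day 4 and at 41.4, 42.05 and 41.7 FPKM at day 8. In neither gene did the days overlap. The early differences of 0.77 ± 0.05 for Adam15 (adjusted p = 8.3e-10) and 0.64 ± 0.05 for Adam23 (adjusted p = 1.2e-08) were not called. Of the Adam15 exon bases, 20.6% overlap another transcript, 4731419I09Rik, on the opposite strand.

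The called ADAMs were less abundant than Adam9, Adam10, Adam15 and Adam23. Adam12, which encodes meltrin alpha, known from muscle cell fusion, stood at 2.11, 2.67 and 2.79 FPKM at day 0, at 19.7, 20 and 19.9 FPKM at day 4 and at 15.9, 17.2 and 16.1 FPKM at day 8. All later samples were above all day 0 samples. It rose by 3.05 ± 0.07 on the log2 scale early (adjusted p = 6.8e-15) and by 2.81 ± 0.08 over the whole process (adjusted p = 1.8e-14). Its relative Adam19, which encodes meltrin beta, was not called, at day means of 5.71, 7.41 and 8.97 FPKM. Adam8, known from leukocytes, stood at 10.7, 11.6 and 9.43 FPKM at day 0, at 2.46, 2.18 and 2.14 FPKM at day 4 and at 1.48, 1.19 and 1.38 FPKM at day 8. Each later day lay below the one before. Adam8 fell by 2.16 ± 0.10 early (adjusted p = 1.2e-11) and fell by 2.86 ± 0.11 over the whole process (adjusted p = 9.9e-13). Of the leukocyte markers, Ptprc, Adgre1 and Itgam were under 0.1 FPKM in every sample, Cd14 had an uncalled difference of -0.62 ± 0.14 over the whole process (adjusted p = 9.5e-04) and Lyz2 fell early and rose late. Csf1r and Cd68 went the other way over the whole process, by 0.63 ± 0.33 (adjusted p = 0.103, edgeR) and 0.40 ± 0.25 (adjusted p = 0.166), and were not called. Adam33 had day means of 2.15 ± 0.183, 1.59 ± 0.195 and 0.813 ± 0.136 FPKM (SD) and fell by 1.27 ± 0.15 over the whole process (adjusted p = 1.4e-06). Its late difference of -0.91 ± 0.16 was called only without Day 4 replicate 1 or Day 8 replicate 1, at -1 and -1.01. Its call over the whole process was lost with limma on log2(FPKM + 1), at -0.80.

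**Figure D5:**
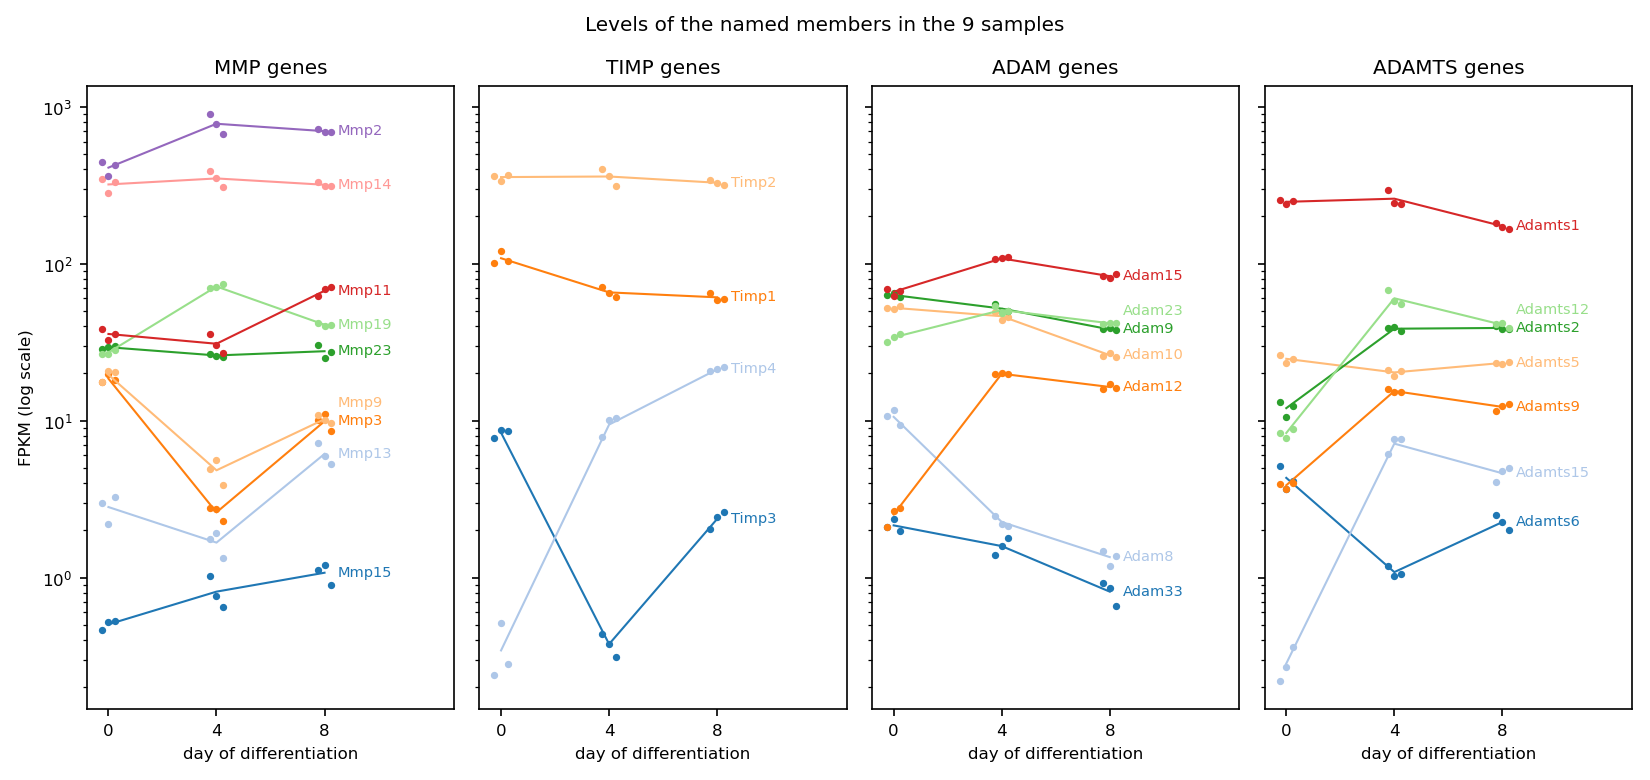
FPKM (log axis) of the named members in the 9 samples against the day, with points for samples and lines through the day means, 1 panel per class. Mmp3, Mmp9, Timp3 and Adamts6 dip at day 4, whereas Timp4, Adam12, Adamts12 and Adamts15 lie higher at days 4 and 8 than at day 0.

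Adamts1, a proteoglycan-cutting enzyme, supplied most of the ADAMTS RNA. It stood at 253, 241 and 249.4 FPKM at day 0, at 295, 245 and 238 FPKM at day 4 and at 181, 172 and 167 FPKM at day 8. Days 0 and 4 overlapped and day 8 lay below both. The late difference was -0.54 ± 0.07 (adjusted p = 7.7e-06), which was not called. At days 0, 4 and 8 it supplied 75.6%, 60.9% and 53.2% of the summed ADAMTS FPKM, while that sum was 327.9 ± 12.0, 426.4 ± 39.1 and 326.1 ± 7.01 FPKM (SD). Adamts5, an aggrecanase, stood at 26.3, 23.2 and 24.7 FPKM at day 0, at 20.9, 19.1 and 20.8 FPKM at day 4 and at 23.2, 22.9 and 23.8 FPKM at day 8 and was not called. Adamts4, the other well-known aggrecanase, was not called either, at day means of 6.91, 7.10 and 7.90 FPKM.

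Of the proteoglycan-cutting ADAMTS genes, Adamts9 and Adamts15 were called. Adamts9 stood at 3.94, 3.68 and 4 FPKM at day 0, at 15.8, 15.2 and 15.3 FPKM at day 4 and at 11.4, 12.5 and 12.77 FPKM at day 8, and it rose by 2.06 ± 0.06 on the log2 scale early (adjusted p = 5.9e-14). Adamts15 stood at 0.22, 0.27 and 0.36 FPKM at day 0, at 6.13, 7.59 and 7.68 FPKM at day 4 and at 4.06, 4.80 and 4.99 FPKM at day 8. It rose by 4.71 ± 0.15 early (adjusted p = 1.6e-13), the largest early rise of the ADAMTS genes. In both genes all later samples lay above all day 0 samples. Over the whole process Adamts9 rose by 1.77 ± 0.06 (adjusted p = 4.0e-13) and Adamts15 by 4.13 ± 0.16 (adjusted p = 1.3e-12). Of the Adamts9 exon bases, 9.18% overlap A730049H05Rik on the opposite strand.

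Adamts12, known for cutting cartilage oligomeric matrix protein, stood at 8.38, 7.77 and 8.87 FPKM at day 0, at 67.5, 57.7 and 55.3 FPKM at day 4 and at 41.2, 42.1 and 39.1 FPKM at day 8. It was highest at day 4 and lowest at day 0 without overlap, and rose by 2.92 ± 0.07 early (adjusted p = 1.2e-14) and by 2.40 ± 0.07 over the whole process (adjusted p = 9.2e-14). Adamts7, which cuts the same protein, was not called, at day means of 4.62, 3.12 and 5.27 FPKM. Adamts2, which removes the amino-terminal propeptide of fibrillar procollagens, stood at 13.2, 10.5 and 12.4 FPKM at day 0, at 39.1, 39.3 and 37.1 FPKM at day 4 and at 39.9, 38.5 and 38.4 FPKM at day 8. Days 4 and 8 overlapped. Adamts2 rose by 1.75 ± 0.07 early (adjusted p = 1.7e-12) and by 1.81 ± 0.07 over the whole process (adjusted p = 1.1e-12), with a late difference of 0.06 ± 0.06 (adjusted p = 0.467). Adamts14, of the same procollagen-trimming group, had day means of 3.01, 5.15 and 5.32 FPKM and a difference of 0.94 ± 0.06 over the whole process, under the limit. Adamts6, known from fibrillin microfibrils, had day means of 4.32 ± 0.751, 1.08 ± 0.0851 and 2.26 ± 0.255 FPKM (SD). It fell by 1.93 ± 0.12 early (adjusted p = 7.5e-10) and rose by 1.10 ± 0.13 late (adjusted p = 4.5e-06). The late call was lost with limma on log2(FPKM + 1) (0.64) and on log2(FPKM + 0.1) (0.99). Adamts10, linked to the same microfibrils, was not called.

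The other members were scarce. The 20 members that were not tested had day means of at most 0.157 FPKM and at most 12 counts in any sample. They were Adam1b, Adam2, Adam21, Adam22, Adam3, Adam30, Adam32, Adam4, Adamts18, Adamts20, Adamts3, Adamts8, Mmp10, Mmp12, Mmp16, Mmp1a, Mmp1b, Mmp24, Mmp25 and Mmp8. A further 9 members were tested but stayed under a mean of 1 FPKM on every day, and 4 of these were called in some comparison. Among all tested genes, at any level, 3148 of 13154 were called in some comparison. In all, 44 members were listed in all 9 samples. A floor of 3 counts corresponded to between 0.147 and 0.165 CPM (counts scaled to the library's size), and values below it rest on fewer counts than this chosen floor.

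Genes that act on these proteases or are cut by them were drawn from 8 lists with 54 genes in the files. Of these 36 were tested, of which 5 were upregulated and 8 downregulated early, 4 upregulated and 3 downregulated late, and 2 upregulated and 8 downregulated over the whole process. The shares of all tested genes were 9.77% and 7.98% early, 4.24% and 2.81% late, and 10.3% and 7.7% over the whole process. The 3 tested astacin proteases included 2 that were downregulated early, Tll1 and Mep1a, both under 0.5 FPKM, and the abundant Bmp1 (63.1, 70.7 and 67.4 FPKM), which was not called. In the same phase the 4 tested ADAMTS-like genes included 2 that were upregulated and 1 that was downregulated, the 4 tested convertases and plasminogen activators 1 that was downregulated, and the 2 tested proteoglycan and COMP substrates 1 that was upregulated. Neither of the 2 tested genes on the list of other inhibitors was called. Bsg, which encodes the MMP inducer basigin, had day means of 327.8, 462.5 and 1025 FPKM and rose by 1.19 ± 0.08 on the log2 scale late (adjusted p = 6.4e-09). Cd44, a hyaluronan receptor that can hold Mmp9 at the cell surface, had day means of 52.9, 20.4 and 18.9 FPKM and fell by 1.31 ± 0.05 early (adjusted p = 1.5e-12). Furin, the convertase that activates many of these precursors, was not called, at 35.7, 55.4 and 33.1 FPKM, and neither was Reck, a membrane-held MMP inhibitor, at 7.98, 9 and 7.68 FPKM. Of the 6 tested chaperones of ADAM10 and ADAM17, only Tspan14 was called, with day means of 12.9, 25.2 and 19.7 FPKM and an early rise of 1.03 ± 0.08 (adjusted p = 6.4e-09).

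Of the 12 tested substrates that ADAMs shed, 1 was upregulated and 3 downregulated early, 2 were upregulated and 2 downregulated late and 4 were downregulated over the whole process, to be read against the same shares of all tested genes. Dlk1, whose shed form restrains adipogenesis, fell by 2.13 ± 0.06 early (adjusted p = 3.4e-14) and rose by 1.24 ± 0.06 late (adjusted p = 9.3e-11). The epidermal growth factor family ligand Ereg had day means of 8.42, 0.987 and 1.35 FPKM and fell by 3.02 ± 0.13 early (adjusted p = 5.5e-12). Il6ra, an interleukin receptor, had day means of 2.70, 7.67 and 3.04 FPKM, and rose by 1.57 ± 0.10 early (adjusted p = 4.8e-10) and fell by 1.29 ± 0.10 late (adjusted p = 1.9e-08). Kitl fell by 1.48 ± 0.05 late (adjusted p = 3.8e-12), and Cdh2, N-cadherin, fell by 1.04 ± 0.06 over the whole process (adjusted p = 1.3e-10). Adamtsl4, an ADAMTS-like protein without a protease domain, had day means of 8.19, 25.7 and 8.05 FPKM, and rose by 1.71 ± 0.06 early (adjusted p = 6.7e-13) and fell by 1.63 ± 0.06 late (adjusted p = 6.4e-12). Versican (Vcan), a main substrate of the proteoglycan-cutting ADAMTS enzymes, was not called, with a late difference of -0.78 ± 0.06 (adjusted p = 6.1e-08).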

How the data were processed

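RNA-seq of 9 3T3-L1 samples was used, 3 at each of 3 days, grouped by the day in their titles. The authors removed poor reads, mapped the rest with HISAT/Bowtie2 and quantified genes with RSEM. The submitters' processing notes also name CASAVA 1.4, the genome build is not given in the sources used here, and the labels name a library kit of another sequencing platform than the study's methods. The authors deposited expected counts per gene, not normalized (29.8% are not whole), and FPKM values scaled to gene length and depth, with 0.01 as the lowest. Genes absent from a sample's list were taken as 0. Depth was 18216114 to 20452144 expected counts per sample.

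For the tests, expected counts were rounded and fitted by edgeR 4.0.16 under R 4.3.3 (filterByExpr by day, TMM, glmQLFit and glmQLFTest on all 9 samples, 1 coefficient per day, no covariate). Benjamini-Hochberg adjustment ran over all 13154 tested genes, and calls needed an adjusted p under 0.05 with a change of more than 2-fold. Since nothing states separate cultures, p-values measure the spread between these samples, which may be technical.

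Members and lists were chosen with earlier results of these data known. Values in every sample are given for members called at a mean of at least 5 FPKM on some day, for members of at least 20 FPKM and for all TIMPs, and day means for other called members of at least 1 FPKM. Further members and partner genes named were chosen after their values were seen, apart from called partners of at least 5 FPKM.

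Promoters came from RefSeq (GRCm38.p6), and exon overlap and shared 50-base stretches from GENCODE vM21. Alternatives were RLE factors and library size alone, filters of none or of 10 counts in each sample, a Poisson test, DESeq2 1.42.0, the exact test of edgeR, limma 3.58.1 on log2(FPKM + 1) and log2(FPKM + 0.1), fits on the 6 samples of a comparison alone, a replicate block, and each sample left out. The steps were tested on simulated data. One marker gene is not reported here.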

Additional observations from a re-analysis of the deposited data

How the results depend on the processing

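The number of upregulated members in the late phase was 5 in place of 8, and over the whole process 6 in place of 11, with limma on log2(FPKM + 1), which also left 2 in place of 5 downregulated over the whole process. With at least 10 counts in every sample that last number was 3. Late, 1 member was downregulated with library size alone and 1 with the Poisson test, in place of 0. With single samples left out, upregulated members numbered 8 to 10 early, 6 to 8 late and 10 to 12 over the whole process, and downregulated ones 6 to 7, 0 to 3 and 4 to 5. The late count of 3 arose without Day 8 replicate 1, and counts of 1 and 2 without Day 4 replicate 1 or 2. The causes were not tested.

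No named member reversed its direction in any called comparison. Of the 81 fold changes of named members, limma on log2(FPKM + 1) took 6 calls away, among them Adam33 (-0.80), Mmp13 (0.91) and Mmp15 (0.46) over the whole process and Adamts6 (0.64) and Mmp9 (0.95) late. Mmp11 over the whole process was not called with library size alone (0.93) or with limma (0.90 and 0.91). With limma on log2(FPKM + 0.1), Adamts6 late (0.99) and Mmp15 over the whole process (0.95) were not called either, and with at least 10 counts in every sample Mmp2 became called early, just past the limit. Adam10 over the whole process became called with library size alone and with limma on log2(FPKM + 0.1), just past the limit, and Adam33 late (-1.01) without Day 8 replicate 1. Library size alone put the median of all genes at -0.129 over the whole process, in place of -0.018.

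The replicate block changed no call of a named member, and the early phase kept a count of 8 upregulated members. Samples of the same number were not treated as pairs, since deviations from the day means correlated at only -0.0348 to 0.075 between them (mean 0.0307, against -0.0154 for different numbers). The own number was best in 12 of 18 combinations, a hint from the data of something shared by number, which the design does not state.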

Other observations

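A few members were called at levels under 1 FPKM, and their calls were not described above. Adamts16 was listed at 0.19, 0.22 and 0.24 FPKM at day 0, at 0, 0.02 and 0 FPKM at day 4 and at 0.05, 0.04 and 0.03 FPKM at day 8, so that its early fall and late rise rest on at most 25 counts in a sample and no fold is given. Mmp27 rose by 1.79 ± 0.36 on the log2 scale early (adjusted p = 3.3e-04, edgeR) on at most 26 counts in a sample. Adam5 and Adamts17 were called over the whole process only, at day means of at most 0.237 and 0.147 FPKM.

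Plau, which encodes the plasminogen activator urokinase and stayed under the level set for naming partner genes, had day means of 3.66, 0.797 and 1.63 FPKM. It fell by 2.12 ± 0.19 early (adjusted p = 3.8e-08, edgeR) and rose by 1.07 ± 0.21 late (adjusted p = 5.2e-04). Hbegf, a growth factor that ADAMs shed, had day means of 3.07, 0.353 and 0.630 FPKM and fell by 3.04 ± 0.19 early (adjusted p = 7.4e-10). Both were chosen after their values were seen.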
